A study of Homo sapiens with 10 samples.

Results

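The thioredoxins TXN and TXN2, the peroxiredoxins PRDX1 to PRDX6, and the arrestin-fold genes TXNIP and ARRDC4 were followed in human cells given different amounts of cysteine. The genes were listed by name, with earlier results of these data known, and all 10 were found among the 78894 genes of the deposited table, through the symbols of GENCODE release 44. The cells were HEK293T, an established line from human embryonic kidney that carries a viral large T antigen, cultured for 24 h with a label of 0X-Cys (2 libraries, cysteine-free medium), 1X-Cys (4 libraries, normal medium) or 10X-Cys (4 libraries, excess cysteine). The labels' numbers of libraries differ from the replicate number in the study's legend, and all labelled libraries were used. Poly(A) RNA was sequenced, with no genetic change or drug in any group. Values are normalized counts, that is, the reads on a gene divided by the size factor of its library. The study set up the cysteine-free and normal media as its comparison, and the excess medium is a further group in the labels. One protocol in its methods varies cysteine in a shared base medium. Another sets complete medium against a starvation medium with dialyzed serum and its own glucose level. Which of them served these libraries is not settled in the sources used here, and differences other than cysteine were not tested.

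Thioredoxins are small proteins that reduce disulfides in other proteins through a pair of cysteines, and thioredoxin reductase restores them with electrons from NADPH. Peroxiredoxins are abundant enzymes that remove hydrogen peroxide with a reactive cysteine, and most of them depend on thioredoxin for the next cycle. TXNIP binds reduced thioredoxin and, like its close relative ARRDC4, belongs to the alpha-arrestins, which steer membrane proteins such as glucose transporters into the cell. Transcription of both is known to be driven by MLXIP (MondoA) with its partner MLX, factors that respond to glucose phosphates.

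The promoters of TXNIP and ARRDC4 are shown because these relatives have the same known regulator, and that of PRDX3 because it is the peroxiredoxin promoter whose window starts at the annotated gene and holds a match. RefSeq promoter windows on GRCh38.p14 were given for 7 of the 10 genes, from 250 bases before the start site to 50 after it, and were searched on both strands. A pair of CACGNG copies 5 bases apart, in any orientation, is the form of the carbohydrate response element read by MLXIP and MLX. This pair occurred in 27 of 35116 promoters in the RefSeq table (0.0769%) and, among the genes described here, in TXNIP, where the match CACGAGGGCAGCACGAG lay at chr1:145996651-145996667 with its first base at position -88 from the start site. A single CACGTG was present in 7.26% of all promoters, and here in ARRDC4 at -210, PRDX3 at -157 and PRDX4 at -83. The PRDX4 window follows a RefSeq start site that lies inside the GENCODE gene. TGACNNNGC, the core of the antioxidant response element, was present in 13.3% of all promoters and in none of the windows given for these genes. TXN2, PRDX1 and PRDX6 had no window and were not searched for any of these motifs. The 250 bases before each start site are given 5′ to 3′ on the strand of the gene, with the matched letters in capitals. A match of letters is a description and no measure of binding.
TXNIP, chr1:145996580-145996829, minus strand: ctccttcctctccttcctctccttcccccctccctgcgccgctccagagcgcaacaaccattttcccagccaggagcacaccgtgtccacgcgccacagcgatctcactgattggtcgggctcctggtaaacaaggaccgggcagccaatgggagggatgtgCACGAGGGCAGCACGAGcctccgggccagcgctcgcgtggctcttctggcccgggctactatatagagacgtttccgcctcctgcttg
ARRDC4, chr15:97960453-97960702, plus strand: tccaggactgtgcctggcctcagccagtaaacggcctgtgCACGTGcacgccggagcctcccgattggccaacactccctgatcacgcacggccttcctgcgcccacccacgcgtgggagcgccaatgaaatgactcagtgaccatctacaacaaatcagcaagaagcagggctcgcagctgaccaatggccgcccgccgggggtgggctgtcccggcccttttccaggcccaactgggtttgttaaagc
PRDX3, chr10:119178813-119179062, minus strand: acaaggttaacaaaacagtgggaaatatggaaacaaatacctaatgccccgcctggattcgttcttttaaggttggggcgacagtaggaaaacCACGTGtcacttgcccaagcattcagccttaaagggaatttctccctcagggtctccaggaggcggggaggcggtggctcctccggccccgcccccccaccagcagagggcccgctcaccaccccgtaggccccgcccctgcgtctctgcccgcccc

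Between 34836014 and 61654861 reads fell on genes per library, and no library lacked reads on any of the 10 genes. Of the genes that mark HEK293T, LIN28B was between 3026 and 4486 normalized counts and the neurofilament gene NEFM between 12200.1 and 15838 in all 10 libraries. Both were lowest in 0X: LIN28B averaged 3061 in 0X, 4263.5 in 1X and 4212 in 10X, and NEFM 12548, 15332 and 15180. The kidney developmental gene PAX2 averaged 318 in 0X, 133 in 1X and 132 in 10X. The neurofilament gene NEFL averaged 3869 in 0X, 3985 in 1X and 3116 in 10X, and the related INA 2975, 2713 and 4272. Of 4 markers of mature kidney, UMOD was at 2.2 or less, SLC12A1 at 21.2 or less and the podocyte gene NPHS1 at 28.2 or less, while AQP1 was between 34.5 and 72.0 in every library, and the T cell markers were at 0 (CD3E), 1.7 or less (CD3D) and 4.4 or less (PTPRC). The liver markers AFP, APOA1 and ALB reached at most 2.5, 14.8 and 21.0. Transcripts of mitochondrial DNA took 5.15% and 5.71% of reads in the 0X libraries, 4.51% to 5.05% in 1X and 0.117% to 0.146% in 10X. This share moved with the 10X medium alongside every 10X result below. With libraries scaled to equal totals over nuclear genes, 9 of the 10 genes were called between 10X and 1X and 9 between 0X and 10X, beside 13374 and 13869 of the 29045 genes tested. In bulk RNA a change in the cells present and a change in RNA per cell cannot be told apart. The labels call the replicates biological but do not say that they were separate cultures on separate days, so the p-values measure the spread between these libraries.

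In cysteine-free medium, where 15.9% of all genes tested were called, TXNIP rose 1.75-fold over normal medium, while PRDX1, PRDX3 and PRDX4 fell to between 63.0% and 69.2% of their normal level. The other 6 genes, both thioredoxins among them, did not pass the test there. The TXNIP call was lost with no filter on low genes and with 0X replicate 1 or 2 left out (log2 fold changes of 0.80, 0.85 and 0.75). In excess cysteine 9 of the 10 genes fell, from TXN at 52.2% to PRDX5 at 82.4% of the level in normal medium, and ARRDC4 did not pass, where 46.0% of all genes tested were called and 22.9% were lower. TXNIP was thus highest in cysteine-free and lowest in excess medium, whereas the means of all peroxiredoxins except PRDX5 were highest in normal medium.

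The call was made with limma on log2 of the normalized count plus 1, at an adjusted p of 0.01 or less after Benjamini-Hochberg adjustment over the 29045 genes with 10 or more in at least 3 libraries, which all 10 genes passed. Between 0X and 1X, 4 of the 10 genes were called (1 higher, 3 lower in 0X), against 15.9% of all genes tested (7.39% higher and 8.51% lower). That background is 4618 genes, and it was 1198 without 0X replicate 1 and 978 without 0X replicate 2, with 3 of the 10 genes called in each case. Without 1X replicates 1 and 2 it was 2968 and 2795, with 4 of the 10 called. The median log2 fold change of the 10 genes was -0.10, against 0.002 over all genes. Between 10X and 1X, 9 of 10 were called and all 9 were lower in 10X, against 46.0% of all genes (23.1% higher and 22.9% lower). Their median was -0.48, against 0.014 over all genes. Directly between 0X and 10X, 9 of 10 were called, 8 higher and 1 lower in 0X, against 48.0% of all genes (23.6% higher and 24.4% lower), with a median of 0.36. Scaling the libraries to equal totals over all genes moved the median of all genes in 10X against 1X from 0.014 to 0.12 and the share of called genes that were higher in 10X from 50.3% to 61.8%, and the 10 genes kept negative values. In 0X against 10X that share, higher in 0X, went from 49.2% to 40.0%, and in 0X against 1X from 46.4% to 52.3%, or to 55.1% with equal totals over nuclear genes. Called genes are more common among well expressed ones: among those averaging at least 100, to which all 10 belong, 24.1%, 61.9% and 62.7% were called in the same 3 comparisons. Of these 17679 genes, 2338 were lower in 0X than in 1X, 5832 lower in 10X than in 1X and 5776 higher in 0X than in 10X. The 0X and 10X comparisons share the 1X libraries, so their values are given side by side.

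TXN (ENSG00000136810, chr9:110243810-110256507, minus strand of GRCh38) encodes the thioredoxin of cytosol and nucleus. Its normalized counts were 8462 and 8972 in 0X, then 9999.5, 9403, 9342 and 9153 in 1X, and 4980.1, 5080.4, 4761 and 4965 in 10X. The 10X libraries formed a tight group far below all others, and the 0X libraries lay just below the 1X range. The mean of 4946 ± 134 (SD, n = 4) in 10X was 52.2% of the 9474 ± 366 (SD, n = 4) in 1X, a log2 fold change of -0.94 (SE 0.0395, limma adjusted p = 4.75e-12). This was the largest fall among the 10 genes, and 19.5% of all genes called lower in 10X fell further. The 0X mean of 8717 ± 361 (SD, n = 2) was not called against 1X (log2 fold change -0.12, 95% interval -0.23 to -0.0064, limma adjusted p = 0.11). Against 10X, TXN in 0X was 1.76-fold higher (limma adjusted p = 1.71e-14).

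TXN2 (ENSG00000100348, chr22:36467046-36481640, minus strand) encodes the thioredoxin of mitochondria. It had 3181 and 3267 normalized counts in 0X, 3223, 3138, 2913 and 3269 in 1X, and 2091, 2373, 2503 and 2488 in 10X. The 0X libraries lay inside the 1X range, and all 10X libraries lay below both. The 10X mean was 2364 ± 191 (SD, n = 4) against 3136 ± 158 (SD, n = 4) in 1X, a log2 fold change of -0.41 (SE 0.0585, limma adjusted p = 1.31e-05). The estimate for 0X against 1X was 0.042, with a 95% interval from -0.093 to 0.18 (limma adjusted p = 0.665), so a change past 0.18 on the log2 scale in either direction lies outside the interval. TXN2 was 1.37-fold higher in 0X than in 10X (limma adjusted p = 3.53e-07), a call that was lost with no filter on low genes (limma adjusted p = 0.0158). Within libraries, TXN stood at 303 ± 17.4 per 100 TXN2 in 1X and 211 ± 20.9 in 10X (SD, n = 4 each), and the groups did not overlap in this ratio, which was 280.0 at the lowest in 1X and 238 at the highest in 10X.

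TXNIP (ENSG00000265972, chr1:145992435-145996579, minus strand) encodes the thioredoxin-interacting protein. Its 0X libraries had 855 and 919 normalized counts, its 1X libraries 544, 577, 399 and 531, and its 10X libraries 328, 361, 367 and 325. The 3 groups did not overlap and stood in the order 0X, 1X, 10X, although replicate 3 of 1X, the lowest of its group, was closer to the 10X libraries than to the other 1X libraries. The 0X mean was 887 ± 45.3 (SD, n = 2), against 513 ± 78.3 (SD, n = 4) in 1X, a log2 fold change of 0.80 (SE 0.129, 95% interval 0.53 to 1.08, limma adjusted p = 0.000507). Of the genes called higher in 0X, 30.7% rose further. Leaving out 0X replicate 1 gave 0.85 (limma adjusted p = 0.0139) and leaving out 0X replicate 2 gave 0.75 (limma adjusted p = 0.0253), neither past the threshold. With no filter on low genes the value stayed at 0.80 but the call was lost (limma adjusted p = 0.0644).

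The 10X mean of TXNIP was 345 ± 21.9 (SD, n = 4), a log2 fold change of -0.56 from 1X (SE 0.103, limma adjusted p = 0.000181), which is 67.9% of the normal level. From 10X to 0X TXNIP rose 2.57-fold, or 1.36 on the log2 scale (SE 0.084, limma adjusted p = 7.33e-13), the largest difference of the 10 genes in that comparison. Relative to the mRNA of the protein it binds, TXNIP stood at 10.2 ± 0.0983 normalized counts per 100 of TXN in 0X (SD, n = 2), uncorrected for exon length. The value was 5.41 ± 0.812 in 1X and 6.98 ± 0.546 in 10X (SD, n = 4 each). The ratio in both 0X libraries was thus above that of every other library, while 1X and 10X spanned 4.27 to 6.14 and 6.54 to 7.71. In GENCODE release 44 the exons of TXNIP overlap no other gene.

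ARRDC4 (ENSG00000140450, chr15:97960703-97973833, plus strand) encodes the alpha-arrestin closest to TXNIP. Its normalized counts were 1446 and 1623 in 0X, 1522, 1589, 1084 and 1727 in 1X, and 1276, 1258, 1255 and 1222 in 10X. The 1X group was wide, with replicate 3 below all 10X libraries and the other 3 above them. The means were 1535 ± 125 (SD, n = 2) in 0X, 1480.5 ± 278 (SD, n = 4) in 1X and 1253 ± 22.6 (SD, n = 4) in 10X. The estimate for 0X against 1X was 0.071, with an interval from -0.23 to 0.37 (limma adjusted p = 0.746), and its sign turned without 1X replicate 3 (-0.072) or without 0X replicate 2 (-0.012). Against 1X the 10X value was -0.22 (limma adjusted p = 0.0747), and without 1X replicate 3 it was -0.36 and passed (limma adjusted p = 8.54e-06). The 0X and 10X libraries did not overlap, and ARRDC4 was 1.22-fold higher in 0X (log2 fold change 0.29, SE 0.0584, limma adjusted p = 0.000143). That call was lost in 3 alternatives: without 0X replicate 2 (0.21, limma adjusted p = 0.0176), in a fit of all 3 groups (limma adjusted p = 0.0497) and with no filter (limma adjusted p = 0.0133).

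The low value in 1X replicate 3 was shared with TXNIP. TXNIP stood at 57.9 ± 1.75 per 100 ARRDC4 in 0X (SD, n = 2), 34.9 ± 2.8 in 1X and 27.5 ± 1.69 in 10X (SD, n = 4 each). In 1X replicate 3 it was 36.8, the highest of its group, whose other libraries had 35.7, 36.3 and 30.7, and the 3 groups did not overlap. Replicate 3 was the lowest of the 1X libraries for 7 of the 10 genes.

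Over the 10 libraries, the genes most like TXNIP were found by the root mean square difference of log2 values centred on their own 1X mean, among 14551 genes that have a symbol and average at least 100. The closest was ALDH6A1, an enzyme of valine breakdown in mitochondria, at 0.12, with means of 1949 in 0X, 1157 in 1X and 769 in 10X. The zinc finger gene ZNF599 followed at 0.12, TMEM143 at 0.13, TRIM66 at 0.14 and TMEM8B at 0.16. ARRDC4, at 0.40, ranked 1540 in this order, behind PRDX5 at 647 and TXN2 at 1049, and PRDX1 was the farthest of the family at 10575. The points share their libraries, and the order is a description.

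PRDX1 (ENSG00000117450, chr1:45510914-45542732, minus strand), the main peroxiredoxin of the cytosol, had the sharpest peak in normal medium. Its normalized counts were 11174 and 10625 in 0X, 18642, 16901, 17055.5 and 16676 in 1X, and 10401, 10397, 10281.5 and 10545 in 10X. Every library of the changed media lay far below every 1X library, and 0X lay just above 10X. The 0X mean of 10899.7 ± 388 (SD, n = 2) was 63.0% of the 17318.5 ± 896 (SD, n = 4) in 1X, a log2 fold change of -0.67 (SE 0.0539, limma adjusted p = 2.47e-06). The 10X mean of 10406 ± 108 (SD, n = 4) was 60.1% of it, a log2 fold change of -0.73 (SE 0.0382, limma adjusted p = 6.64e-11). Directly, 0X and 10X differed by 0.066 on the log2 scale, with a 95% interval from -0.0087 to 0.14 (limma adjusted p = 0.122).

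PRDX1 shares 501 exon bases, 29.8% of its own, with MMACHC, a gene of cobalamin metabolism on the opposite strand. MMACHC had 4911 and 4959 normalized counts in 0X, between 6043 and 6832 in 1X and between 3978 and 4203 in 10X, so its groups were ordered with 1X on top as well. It stood at 36.2 to 46.7 per 100 PRDX1 over the 10 libraries. According to the study's methods, a read lying on several genes was dropped, and the library kit keeps the strand, but the strand setting of the counting is not given in the sources used here. Whether any read was counted for both genes was not tested. PRDX2 shares 247 exon bases, 12.1% of its own, with the long noncoding RNA ENSG00000267062 on the other strand, which stood at 27.6 to 31.4 per 100 PRDX2.

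PRDX2 (ENSG00000167815, chr19:12796820-12801800, minus strand), the cytosolic peroxiredoxin that is also abundant in red cells, moved less. It had 9100.1 and 9423 normalized counts in 0X, 10465, 9598.5, 9564 and 10037 in 1X, and 7444.5, 7552, 7700 and 7762 in 10X. The 10X libraries lay below all others and the 0X libraries just below the 1X range. The log2 fold change of 10X against 1X was -0.38 (SE 0.0384, limma adjusted p = 2.36e-07), or 76.8% of the normal level. For 0X against 1X it was -0.10, with a 95% interval from -0.21 to 0.015 (limma adjusted p = 0.19). PRDX1 stood at 175 ± 5.78 per 100 PRDX2 in 1X (SD, n = 4), 118 ± 7.09 in 0X (SD, n = 2) and 137 ± 2.63 in 10X (SD, n = 4), with no overlap between the media.

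PRDX6 (ENSG00000117592, chr1:173477330-173488815, plus strand) encodes the peroxiredoxin that draws on glutathione rather than thioredoxin and also acts on phospholipids. Its normalized counts were 9127 and 9415 in 0X, 10532, 9732, 9672 and 9821 in 1X, and 6917, 6792, 6956 and 6972 in 10X. As with PRDX2, the 10X group stood well below and the 0X group slightly below the 1X range. In 10X the mean of 6909 ± 81.7 (SD, n = 4) was 69.5% of the 9939 ± 399.9 (SD, n = 4) in 1X, a log2 fold change of -0.52 (SE 0.0374, limma adjusted p = 3.37e-09). The value for 0X against 1X was -0.10 (95% interval -0.21 to 0.011, limma adjusted p = 0.174).

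PRDX3 (ENSG00000165672, chr10:119167720-119178812, minus strand), the peroxiredoxin of the mitochondrial matrix that works with TXN2, fell in both changed media. It had 7687 and 7776 normalized counts in 0X, 11347, 10967, 11211 and 11142 in 1X, and 6272, 6632, 6569 and 6450 in 10X. All 3 groups were narrow and stood apart, with 1X at the top and 10X at the bottom. The log2 fold change was -0.53 in 0X (SE 0.0462, limma adjusted p = 4.37e-06) and -0.79 in 10X (SE 0.035, limma adjusted p = 9.75e-12), each against 1X. Those correspond to 69.2% and 58.0% of the normal level. Between the changed media PRDX3 was 1.19-fold higher in 0X (limma adjusted p = 4.05e-06).

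PRDX5 (ENSG00000126432, chr11:64318121-64321811, plus strand) is placed in mitochondria, peroxisomes and cytosol, and was the peroxiredoxin with its highest values in cysteine-free medium. Its normalized counts were 4445 and 4365.5 in 0X, 4003, 3712, 3460 and 4082 in 1X, and 2842, 3125, 3236 and 3358 in 10X. The groups stood in the order 0X, 1X, 10X without overlap, as for TXNIP, but close together. The difference of 0X from 1X was 0.21 on the log2 scale (SE 0.0684, 95% interval 0.064 to 0.36) and missed the threshold (limma adjusted p = 0.0346). It passed with quantile normalization (0.27, limma adjusted p = 0.0088). The fall in 10X was -0.28 (SE 0.0593, limma adjusted p = 0.000651), the smallest of the called genes. The call was lost with libraries scaled to equal totals (-0.17, limma adjusted p = 0.0145) and with no filter (limma adjusted p = 0.0182). Set against the other mitochondrial peroxiredoxin, PRDX3 stood at 294 ± 22.0 per 100 PRDX5 in 1X (SD, n = 4), 176 ± 3.68 in 0X (SD, n = 2) and 207 ± 12.3 in 10X (SD, n = 4).

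PRDX4 (ENSG00000123131, chrX:23664262-23686397, plus strand) encodes the peroxiredoxin of the endoplasmic reticulum, where it passes oxidizing equivalents to protein disulfide isomerases. It had 3551 and 3609 normalized counts in 0X, 5469, 5471, 5249 and 5454 in 1X, and 3784, 3993, 3992 and 4166 in 10X. It was the one gene of the 10 called lower in 0X than in 10X. The log2 fold change against 1X was -0.60 in 0X (SE 0.0519, limma adjusted p = 4.37e-06) and -0.44 in 10X (SE 0.0408, limma adjusted p = 7.76e-08), or 66.2% and 73.6% of the normal level. The direct difference of -0.15 (SE 0.045, limma adjusted p = 0.00516) was small, although the libraries did not overlap, and its call was lost in 8 of 18 alternatives, among them without either 0X library, without 10X replicate 2, 3 or 4, and in a fit of all 3 groups (limma adjusted p = 0.0128).

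Summed over the family, the 6 peroxiredoxins made up 0.133% ± 0.003 of all normalized counts in 1X (SD, n = 4), 0.106% ± 0.00129 in 0X (SD, n = 2) and 0.0957% ± 0.000575 in 10X (SD, n = 4), with no overlap between media. In 0X against 1X, 3 of the 6 were called lower and none higher, against 8.51% of all genes called lower, with a median log2 fold change of -0.32. In 10X against 1X all 6 were called lower, against 22.9% of all genes, with a median of -0.48. Of the 17679 genes tested and averaging at least 100, 2338 were called lower in 0X against 1X and 5832 lower in 10X against 1X. In either direction 24.1% and 61.9% of them were called in these comparisons. Directly between the changed media, PRDX5 was 1.41-fold higher in 0X than in 10X (limma adjusted p = 1.71e-08), PRDX6 1.34-fold (5.46e-10) and PRDX2 1.22-fold (5.77e-07). The calls of PRDX1, PRDX3 and PRDX4 in 0X against 1X held in all 18 alternatives tried. Pseudogenes named after a member held little signal, at most 1.2% of the value of PRDX3 in any library and 0.461% or less for the others.

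Levels between genes were compared per kilobase of exon. All exon bases annotated for any transcript of a gene were used, including the 29.8% of PRDX1 and the 12.1% of PRDX2 that are shared with another gene. The lengths of the transcripts present in these cells were not used, and the order with other lengths was not tested. Reads dropped there would lower the values of PRDX1 and PRDX2, and the effect on the order below was not tested. In normal medium PRDX1 was first at 10296 normalized counts per kilobase and TXN second at 9381, with the lowest PRDX1 library (9914) close to the highest TXN library (9900.5). PRDX2 followed at 4875, PRDX5 at 4435 and PRDX6 at 4301, and the libraries of neighbours in this order overlapped. PRDX3 at 3305, PRDX4 at 2917 and TXN2 at 1900.3 came next. ARRDC4 at 364.5 and TXNIP at 142 were far below. In 0X the order at the top changed, with TXN at 8631 above PRDX1 at 6480.2 and PRDX5 at 5123 above PRDX2 at 4553. In 10X PRDX1 led again at 6187, with TXN at 4897.5, and TXNIP was still the lowest at 95.7.

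**Figure D1:**
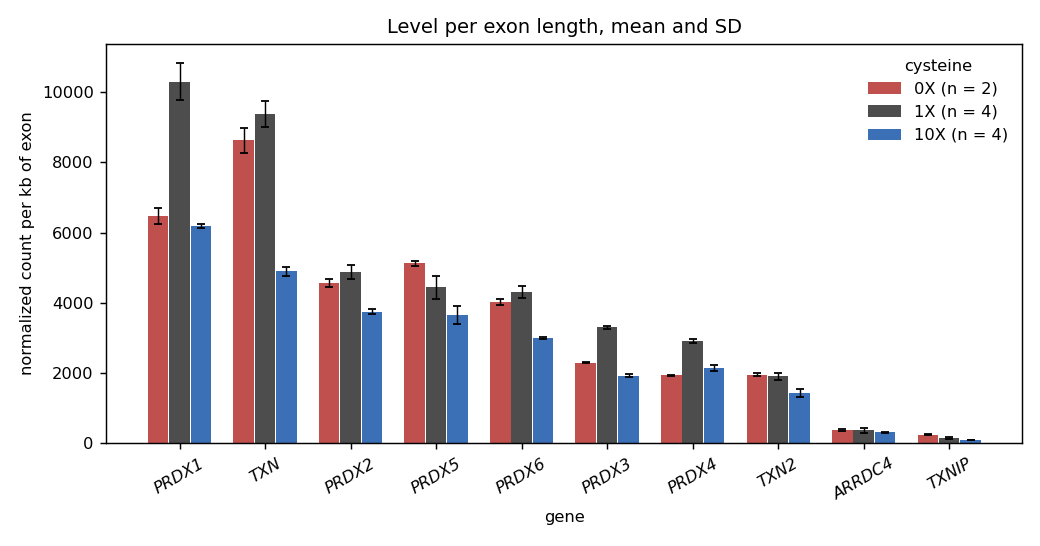
Normalized counts per kilobase of exon (vertical axis, starting at 0) for the 10 genes, in order of their 1X level. Bars are means and error bars SDs, with 2 libraries in 0X and 4 each in 1X and 10X. PRDX1 and TXN stand above the rest in normal medium, at 10296 and 9381, and ARRDC4 and TXNIP are at 364.5 and 142.

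Among 22 genes for thiol reductases and partners of thioredoxin, 5 were called between 0X and 1X (2 higher, 3 lower, median log2 fold change -0.10) and 17 between 10X and 1X (10 higher, 7 lower, median 0.02). These are 22.7% and 77.3% of the group, against 15.9% and 46.0% of all genes tested and 24.1% and 61.9% of those averaging at least 100, so its share in 0X was near that of well expressed genes. The thioredoxin reductase of the cytosol, TXNRD1, averaged 5441 in 0X, 6231 in 1X and 20206.5 in 10X. It thus rose by 1.70 on the log2 scale in excess medium (limma adjusted p = 9.05e-15) while TXN, its substrate, fell by 0.94. In 0X against 1X its value was -0.19 (limma adjusted p = 0.034). SRXN1, the sulfiredoxin that repairs overoxidized peroxiredoxins, fell by 0.83 in 0X and rose by 0.50 in 10X. SESN2, a stress-induced sestrin, rose in both media, by 1.37 in 0X and 1.83 in 10X.

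In excess cysteine RRM2B, a subunit of ribonucleotide reductase, an enzyme that thioredoxin reduces, rose by 1.03 on the log2 scale. NXN (nucleoredoxin), TXNDC17 (a small thioredoxin-like protein) and GLRX5 (a mitochondrial glutaredoxin of iron-sulfur assembly) fell, with log2 fold changes of -0.87, -0.87 and -0.79. In 0X against 1X, TXNDC17 and GLRX3, a cytosolic glutaredoxin, fell with values of -0.59 and -0.31, and MSRB2, a mitochondrial methionine sulfoxide reductase, rose by 0.58. Directly between 0X and 10X, 7 of the 22 were higher and 10 lower in 0X, together 77.3%, against 48.0% of all genes tested and 62.7% of those averaging at least 100. MSRB2 (1.18), NXN (0.80) and the methionine sulfoxide reductase MSRA (0.70) were higher in 0X, and TXNRD1 (-1.89), RRM2B (-1.37) and SRXN1 (-1.33) lower. The MSRA call was lost without 0X replicate 2 (0.39, limma adjusted p = 0.129), with the replicate block (limma adjusted p = 0.0102) and with no filter (limma adjusted p = 0.0559).

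The next list held arrestin relatives, regulators of TXNIP and a few other genes, among them DDIT4, SLC2A1 and NLRP3. Of its 14 genes, 13 had enough reads, and 5 were called between 0X and 1X, 2 higher and 3 lower, with a median of 0.08. DDIT4, an inhibitor of mTOR signalling, rose by 2.02 from 1728.5 to 6985, and the alpha-arrestin ARRDC3 rose by 0.65. ARRDC2, another alpha-arrestin, fell with a value of -0.70, the glucose transporter gene SLC2A1 with -0.43 and MLX, the partner of MLXIP, with -0.37. MLXIP itself was at -0.19 and not called (limma adjusted p = 0.0221). In 10X against 1X, 6 rose and 1 fell, with a median of 0.38: DDIT4 by 1.34, PRKAA2, a catalytic subunit of AMP-activated kinase, by 1.02 and ARRDC3 by 0.46, while MLX fell at -0.38. The shares called, 38.5% in 0X and 53.8% in 10X, stand against 24.1% and 61.9% of genes averaging at least 100 and 15.9% and 46.0% of all genes, so in 10X they were no higher than among well expressed genes. The value of MLXIP there was -0.01 (limma adjusted p = 0.891). Between 0X and 10X, 2 were higher in 0X, DDIT4 (0.68) and PRKAA1 (0.33), and 7 lower, among them ARRDC2 (-0.74), PRKAA2 (-0.68) and ARRDC1 (-0.63). These are 69.2% of the group, against 48.0% of all genes and 62.7% of those averaging at least 100. The PRKAA1 call was lost without 0X replicate 2 (0.19, limma adjusted p = 0.026) and with no filter (limma adjusted p = 0.0524), and that of ARRDC3 in 10X against 1X with no filter (limma adjusted p = 0.0104).

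Of the other enzymes of peroxide and superoxide removal, 6 of 7 had enough reads, and 5 of these fell in 10X and none rose, with a median of -0.75. Catalase (CAT) fell at -1.04, and the glutathione peroxidases GPX1 and GPX4 at -0.94 and -0.75. In 0X against 1X, 2 rose and 3 fell, with a median of -0.20. GPX8, a peroxidase of the endoplasmic reticulum, rose by 0.71 and CAT by 0.33, while GPX1 (-0.34), the mitochondrial superoxide dismutase SOD2 (-0.30) and GPX4 (-0.24) fell. The share called was 83.3% in each comparison, against 24.1% in 0X and 61.9% in 10X of genes averaging at least 100, and 15.9% and 46.0% of all genes. The 0X share was not stable: the calls of CAT, GPX1, GPX4 and SOD2 against 1X were lost without 1X replicate 2, where 2795 of all genes tested were called. Directly, 5 were higher in 0X than in 10X, led by CAT (1.37), GPX8 (0.70) and GPX1 (0.60), and none was lower, a share of 83.3% against 48.0% of all genes and 62.7% of those averaging at least 100.

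The last group was 10 genes for thiol oxidation in the endoplasmic reticulum, where PRDX4 also works. In 0X against 1X 5 fell and none rose (median -0.17), including the disulfide isomerases PDIA6 (-0.41), TXNDC5 (-0.30) and PDIA4 (-0.30). In 10X 7 rose and 1 fell (median 0.42). The oxidase ERO1B rose by 1.14, the reductase DNAJC10 by 0.65 and the disulfide isomerase P4HB by 0.57, and PDIA6 fell at -0.42. Thus 5 of the 10 were called in 0X and 8 of the 10 in 10X, against 24.1% and 61.9% of genes averaging at least 100 and 15.9% and 46.0% of all genes. Between 0X and 10X 8 of the 10 were lower in 0X, led by ERO1B (-1.10), P4HB (-0.78) and PDIA4 (-0.76), against 48.0% of all genes and 62.7% of those averaging at least 100 called in either direction. Leaving out 1 library moved the 0X calls of all 4 groups of genes. With either 0X library left out, fewer were called in each group, and the number of all genes called fell too. Without 1X replicate 2, thiol reductases had 2 called higher and 3 lower, and arrestin relatives 1 and 1. Peroxide enzymes had 1 and 0 and the endoplasmic reticulum 0 and 3, beside 2795 of the 29045 genes tested. Without 1X replicate 3, the counts in that order were 3 and 7, 3 and 3, 2 and 3, and 0 and 5, beside 6300 genes. For thiol reductases they were 3 and 7 in a fit of all 3 groups and 3 and 6 with a replicate block, beside 6405 and 6532 genes. Of the 18 genes named from these groups for 0X against 1X, DDIT4, GPX8, PDIA6 and SESN2 held their call in every alternative tried.

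**Figure D2:**
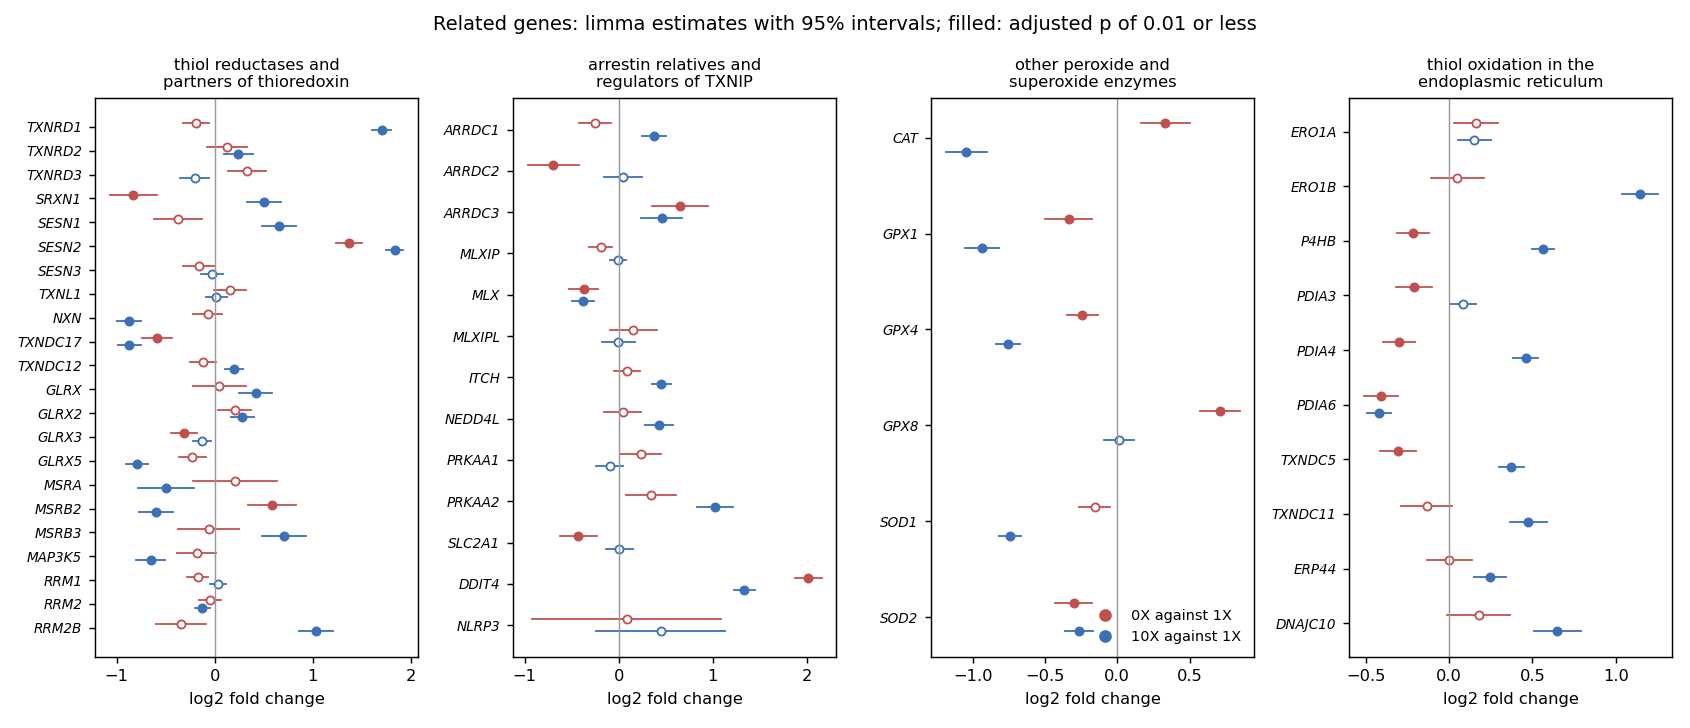
Log2 fold changes (horizontal axes) of the related genes in 4 groups, for 0X against 1X (red) and 10X against 1X (blue), with 95% intervals from limma. Filled points have an adjusted p of 0.01 or less. TXNRD1 stands at 1.70 in 10X, CAT, GPX1 and GPX4 between -1.04 and -0.75, and DDIT4 at 2.02 in 0X.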

How the data were processed

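Poly(A) RNA of HEK293T cells was sequenced as paired reads. The authors deposited 1 table of signal values, which are read counts per Ensembl gene divided by a DESeq2 size factor (normalized counts). Alignment was with STAR 2.7.10b to GRCh38. The study's methods name featureCounts for counting and the submitters' processing notes name HTSeq. The library kit keeps the strand, and the methods state that a read lying on several genes was dropped. The Ensembl release and the strand setting of the counting are not given in the sources used here. All values were whole multiples of 1 step per library (tolerance 0.01), so reads were recovered for the count tests. Replicates differed by more than sampling noise in every pair (chi-square of 3.33 to 13.1 per degree of freedom), so each library was counted as 1 replicate.

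Symbols came from GENCODE release 44 (61463 of 78894 IDs found, 42165 with a symbol). Genes with 10 or more in at least 3 of 10 libraries were kept. R 4.3.3 with limma 3.58.1 (lmFit, then eBayes with its trend option) was used on log2(value + 1), with 2-sided tests, Benjamini-Hochberg adjustment over the kept genes and a threshold of 0.01. Each fit used the 2 groups compared, and fold changes are on the log2(value + 1) scale. Alternatives were pseudocounts of 0.5 and 10, no filter, a minimum of 50, equal totals, quantile normalization, a fit of all groups, a replicate block, an adjusted p of 0.05, adding pseudogenes, edgeR 4.0.16 and DESeq2 1.42.0 on recovered reads, and leaving out each library. Equal totals over nuclear genes was added after seeing the data. The test was checked on simulated data.

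All 10 genes are named. From each of 4 lists of related genes, up to 3 rises and 3 falls of largest size were named per comparison, among called genes averaging at least 100 in their higher group. Other list genes given were picked after their values were seen. The 5 genes most like TXNIP were named by profile. The genes and lists were chosen with earlier results of these data known. Labels give no batch.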

Additional observations from a re-analysis of the deposited data

Results flagged for a closer look

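In the 1X group PRDX4 had 1 library far from the rest: replicate 3 stood at 5249 normalized counts, against 5454 to 5471 in the other 3, and this gap took up 0.921 of the range of the group. Its distance was small beside the difference of the group from 0X and 10X. Of the 20 groups of 4 libraries examined for the 10 genes, about 1 would be picked out by chance.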

How the results depend on the processing

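The 10 genes were recomputed under 18 to 20 alternatives per comparison, giving 560 values, of which 537 kept their direction and their side of the threshold, 17 lost a call, 2 gained one and 4 changed sign. The sign of ARRDC4 in 0X against 1X turned with a replicate block (-0.021), without 0X replicate 2 (-0.012) and without 1X replicate 3 (-0.072), within a range of -0.072 to 0.15 over the libraries left out, and that of PRDX1 in 0X against 10X turned with equal totals (-0.015). None of these was called. The number of members called ranged from 3 to 5 in 0X against 1X, 8 to 10 in 10X against 1X and 6 to 9 in 0X against 10X. Genes called in 0X against 1X numbered 4618, with no filter 738, at an adjusted p of 0.05 7987, and between 978 and 6300 when 1 library was left out (1198 without 0X replicate 1, 978 without 0X replicate 2, 2968 without 1X replicate 1 and 2795 without 1X replicate 2). In 0X against 10X 13954 genes were called, and 8864 with no filter. The cause was not tested. Deviations of same-numbered libraries from their group means correlated between -0.116 and 0.103, so no shift shared by same-numbered libraries was seen. Whether the cultures were paired cannot be told from this, also because the deviations of the 0X libraries mirror each other. With a replicate block 6532, 13392 and 12393 genes and 4, 9 and 8 members were called in 0X against 1X, 10X against 1X and 0X against 10X.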
